A study of Bos grunniens and Bos grunniens x Bos taurus with 6 samples.

Results

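Genes of autophagy, of the lysosomal proton pump and of the cathepsins were compared between yak and cattle-yak in longissimus dorsi, the long muscle along the back. The set was taken from the gene symbols in the deposited table: symbols beginning with ATG and a number, ATP6V, ATP6AP, LAMP and a number or MAP1LC3, cathepsins named CTS and a single letter other than CTSS, and GABARAP, GABARAPL2, SQSTM1, BECN1, ULK1, ULK2, TFEB, WIPI1, WIPI2 and BNIP3L. For each symbol the gene identifier with most reads was used, and all its transcripts were summed. This gave 59 symbols on 58 gene identifiers out of 31044 in the table, because reads named CTSV lay on the identifier of CTSL. Of the 58, 43 reached 30 reads over the 6 libraries and were tested, among 10397 genes tested in all.

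Autophagy encloses cytoplasm in a double membrane, the autophagosome, and delivers it to the lysosome. Initiation complexes start the membrane, a conjugation system attaches the small proteins LC3 and GABARAP to it, receptors such as SQSTM1 bring cargo, and in the lysosome the V-ATPase pumps in protons so that the cathepsins, acid proteases, can degrade what arrives. In skeletal muscle this pathway turns over mitochondria, glycogen and protein, and it responds to fasting, exercise and loss of innervation.

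The 2 groups were 3 libraries of yak (Bos grunniens) and 3 of cattle-yak, the hybrid labelled Bos grunniens x Bos taurus. All 6 came from total RNA of the same muscle and were nanopore reads of full-length cDNA amplified by PCR. The labels give neither age, sex, feeding nor the direction of the cross, and do not say that the samples of a group are separate animals. The p-values therefore reflect only how far these samples vary, which can be technical variation. Each library held 2350851 to 2769106 counted reads, of which the set took 0.222% to 0.247%, and the 43 tested genes had 33 to 5728 reads each over the 6 libraries.

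Markers of skeletal muscle fibres were abundant in every library: 9 of 10 listed had reads under their own identifier, with a summed level in CPM (counts scaled to a common library size, here with TMM factors) of 259779 to 288073 in yak and 194285 to 220977 in cattle-yak. The groups did not overlap: MB, MYH2 and ACTA1 fell (log2 fold changes -0.96, -0.70 and -0.69, with the ACTA1 symbol on 1.57% of its reads) and TTN rose (0.59), and their part in the results below was not tested. Markers of other cells were present. Their summed levels separated the groups for fibroblasts and Schwann cells and overlapped for macrophages, endothelial cells and adipocytes. The macrophage list (12 of 14 with reads) summed to 12.7 to 40.1 CPM in yak and 23.4 to 88.5 in cattle-yak, and the fibroblast list (6 of 6) to 439 to 551 and 223 to 415. The endothelial list (5 of 5) summed to 28.9 to 32.1 CPM in yak and 30.9 to 59.7 in cattle-yak, and the Schwann cell list (4 of 4) to 105 to 138 and 214 to 308. Of the adipocyte list 1 of 4 had reads, FABP4, while no row carried ADIPOQ, PLIN1 or LEP. The part of these cells in the results below was not tested. In bulk tissue fewer cells of a type cannot be told apart from less RNA per cell.

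Of the 43 genes, 1 rose and 1 fell in cattle-yak, and 41 did not pass (edgeR quasi-likelihood test, Benjamini-Hochberg adjusted p under 0.05 over all genes). MAP1LC3A, an LC3 protein, rose, and ATG4A, a protease of the conjugation system, fell. The called share was 4.65%, against 10% of all genes tested (1040 of 10397, 4.92% higher and 5.08% lower). At an unadjusted p under 0.05 there were 7 genes: ATG4A, MAP1LC3A, ATG5, GABARAPL2, ATP6V1G1, ATP6V1B2 and CTSF. The share of all genes at that unadjusted p was not counted, so this count and the unadjusted counts below have no background beside them. The log2 fold changes, cattle-yak over yak, ran from -0.99 to 1.42 with a median of -0.17, against a median of 0.04 over all genes. In the set 16 of 43 estimates were above 0, against 5473 of 10397 over all genes. The libraries of the groups did not overlap in 12 of 43 genes, 27.9%, against 29.9% of all genes.

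Most of the estimates exclude large changes. The 95% interval of the log2 fold change lay within 1 on either side of 0 in 27 of 43 genes (62.8%), against 31.5% of all genes. Intervals narrow with read depth, and these shares were not compared at matched depth. Among genes with at least 342 reads, the median of the set, 1 of 22 in the set was called (4.55%), against 451 of 2603 genes (17.3%), and the median size of the log2 fold change was 0.236 in the set and 0.309 over those genes. Summed over the 58 identifiers, the set stood at 2434, 2428 and 2478 CPM in yak and 2277, 2250 and 2240 in cattle-yak. The yak libraries were higher in this sum and the groups did not overlap. That order depends on the scaling: with library size alone the groups overlapped and the log2 ratio of the means moved from -0.12 to 0.08 (a setting tried after the values were seen), while the median of all genes moved from 0.04 to 0.23.

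**Figure D1:**
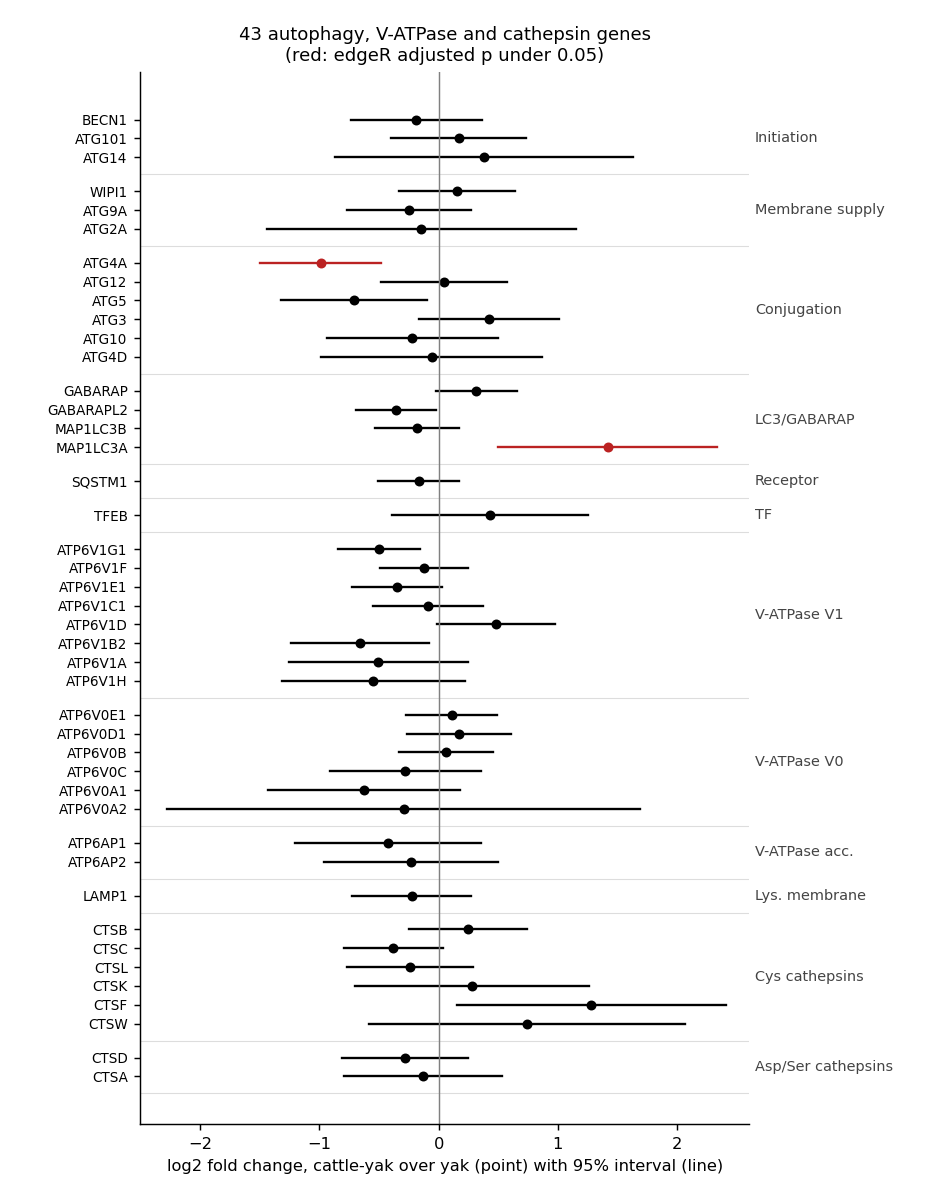
Log2 fold change of each of the 43 tested genes, cattle-yak over yak (x axis), grouped by role (right), with points for the edgeR estimate and lines for its 95% interval; acc. is accessory and TF is transcription factor. ATG4A at -0.99 and MAP1LC3A at 1.42, in red, are the genes past the threshold.

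Genes that start the autophagosome did not pass the test. BECN1, the Beclin 1 subunit of the lipid kinase complex that marks the new membrane, stood at 35.6, 41.1 and 26.4 CPM in yak and 42.2, 25.4 and 23.2 in cattle-yak, and the groups overlapped (log2 fold change -0.19 ± 0.26 SE, adjusted p = 0.700). ATG101, of the ULK1 kinase complex, had 12.9, 16.2 and 20.5 CPM in yak and 16.4, 21.9 and 17.4 in cattle-yak (0.17 ± 0.27, adjusted p = 0.742). These groups overlapped too. ATG14, which directs the Beclin 1 complex to the site, had 33 reads in all, and its interval ran from -0.86 to 1.63. No row carried the symbol ULK1, and ULK2 and ATG13, of the same kinase complex, had 28 and 2 reads, so the kinases themselves were not tested here.

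Membrane supply gave the same picture. WIPI1, which binds the lipid mark, stood at 30.7, 29.3 and 41.9 CPM in yak and 47.7, 31.9 and 33.7 in cattle-yak (0.15 ± 0.23, adjusted p = 0.725). ATG9A, the lipid scramblase of the vesicles that seed the membrane, had 20.9, 32.8 and 22.8 CPM in yak and 22.7, 18.5 and 23.2 in cattle-yak (-0.25 ± 0.25, adjusted p = 0.567), with its symbol on 46.8% of its reads. Both overlapped between the groups, as did the lipid transfer protein ATG2A at 33 reads. Its relative ATG2B (8 reads) and WIPI2 (6 reads) were too low to test.

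The conjugation system held the set's clearest difference. ATG4A (ENSBGRG00000020889) encodes a cysteine protease that trims LC3 and GABARAP proteins before they are joined to lipid and frees them afterwards. It had 62.8, 115 and 77.4 CPM in yak and 52.0, 33.5 and 42.8 in cattle-yak. All 3 yak libraries were above all 3 cattle-yak libraries, with yak 2 the highest and cattle-yak 2 the lowest. The mean went from 84.9 ± 26.7 to 42.8 ± 9.25 CPM (SD, n = 3 each) and the log2 fold change was -0.99 ± 0.24 SE, with an edgeR adjusted p of 0.0160. The call was lost without yak 2 (-0.71, adjusted p = 0.0920), without cattle-yak 2 (-0.82, 0.0644) and without cattle-yak 3 (-0.96, 0.0576). It was also lost with reference transcripts alone (-1.32, adjusted p = 0.0661), and it held in 14 of 18 alternatives.

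Only 40.1% of the ATG4A reads carried the symbol; the others lay on transcripts of the same identifier that the deposited annotation calls a hypothetical protein. Rows with the symbol went from 37.5 ± 11.8 to 14.2 ± 3.84 CPM, and rows without it from 47.4 ± 14.9 to 28.6 ± 5.49 CPM, so both parts were lower in cattle-yak with no overlap of the groups. Its reference transcript, ENSBGRT00000038464, had 14, 42 and 24 reads in the yak libraries and 10, 8 and 14 in those of cattle-yak. It fell on its own (log2 fold change -1.51 ± 0.42, edgeR adjusted p = 0.0237 over all transcripts). That call went when yak 2 (adjusted p = 0.167), cattle-yak 1 (0.0583) or cattle-yak 2 (0.0935) was left out. The transcript with most reads, TALONT001321955, is one of those without a symbol and did not pass (-0.63 ± 0.28, adjusted p = 0.152).

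The paralog ATG4D, a protease of the same family, showed no such difference at its lower count. It had 4.90, 5.69 and 3.64 CPM in yak and 3.52, 6.54 and 3.63 in cattle-yak, overlapping, with a wide interval of -0.99 to 0.87 for the log2 fold change. Reads of ATG4A per read of ATG4D were 12.8, 20.2 and 21.2 in yak and 14.8, 5.12 and 11.8 in cattle-yak, and these overlapped. The difference between the paralogs did not exceed the spread of the libraries. ATG4B had no row with its symbol and ATG4C had 4 reads.

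The other tested genes of the conjugation system did not pass. ATG5, which joins ATG12 to form the ligase that places LC3 on the membrane, was at 20.5, 17.5 and 17.3 CPM in yak and 15.2, 8.85 and 9.80 in cattle-yak. All cattle-yak libraries were below all yak libraries, but the estimate of -0.71 ± 0.29 had an adjusted p of 0.137. Its partner ATG12 was at 28.5, 34.5 and 19.6 CPM in yak and 32.4, 30.4 and 22.5 in cattle-yak, overlapping (0.04 ± 0.25, adjusted p = 0.939). ATG3, the enzyme that hands LC3 to lipid, was at 10.7, 12.2 and 10.5 CPM in yak and 15.2, 16.5 and 13.1 in cattle-yak, higher in every cattle-yak library without passing (0.42 ± 0.28, adjusted p = 0.375). ATG10, which joins ATG12 to ATG5, overlapped (-0.22 ± 0.34). Of the 6 tested genes of this group, 1 fell and none rose, with a median of -0.14. The group's summed level of 159 ± 29.7 CPM in yak and 115 ± 14.6 in cattle-yak became 74.5 ± 8.92 and 72.5 ± 8.39 once ATG4A was left out. ATG7 (27 reads) and ATG16L1 (24 reads), also of this system, missed the read minimum.

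The proteins that conjugation acts on, LC3 and GABARAP, differed among themselves. MAP1LC3A (ENSBGRG00000007760) was a minor gene by count: 6, 6 and 7 reads in the yak libraries and 24, 23 and 13 in those of cattle-yak, or 2.67, 2.62 and 3.19 CPM against 9.38, 8.85 and 4.72. Every cattle-yak library was above every yak library, with cattle-yak 3 nearest to the yak values. The mean went from 2.83 ± 0.313 to 7.65 ± 2.55 CPM (SD, n = 3 each) and the log2 fold change was 1.42 ± 0.43 SE, with an edgeR adjusted p of 0.0487, just under the threshold. The call was lost in 11 of 17 alternatives, and all 17 gave the same direction (1.27 to 1.70). The losses include DESeq2 (adjusted p = 0.149), limma-voom (0.106) and the fits without yak 1 (0.121), yak 2 (0.129), yak 3 (0.107), cattle-yak 1 (0.117) or cattle-yak 2 (0.114).

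MAP1LC3B, the LC3 form most used as a marker of autophagosomes, stood at 170, 185 and 174 CPM in yak and 179, 149 and 138 in cattle-yak. The groups overlapped and the estimate of -0.18 ± 0.17 did not pass (adjusted p = 0.535), with an interval of -0.54 to 0.17. In reads, MAP1LC3B outnumbered MAP1LC3A by 63.5, 70.7 and 54.6 to 1 in yak and 19.1, 16.9 and 29.2 to 1 in cattle-yak, with no overlap.

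GABARAP and GABARAPL2, of the branch linked to late steps of autophagosome formation, had estimates of opposite sign. GABARAP was at 338, 296 and 320 CPM in yak and 356, 413 and 417 in cattle-yak, higher in every cattle-yak library (0.31 ± 0.16, adjusted p = 0.237). GABARAPL2 was at 224, 209 and 195 CPM in yak and 166, 164 and 159 in cattle-yak, lower in every one (-0.36 ± 0.16, adjusted p = 0.168). Neither passed; with library size alone GABARAP did (0.51, adjusted p = 0.0455). The ratio of the pair, which does not depend on scaling, was 1.51, 1.42 and 1.64 GABARAP reads per GABARAPL2 read in yak and 2.14, 2.52 and 2.63 in cattle-yak. These values did not overlap; the pair was chosen after the values were seen, so no test is given. A second identifier, ENSBGRG00000021678, also carried the name GABARAP on 2996 of its 3451 reads, the rest being mostly named for its neighbour CTDNEP1. Its GABARAP reads stood at 185 ± 11.2 CPM in yak and 221 ± 17.9 in cattle-yak, again higher in every cattle-yak library.

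Together with GABARAPL1, which belongs to the same family and rose in these libraries (15, 18 and 16 reads in yak, 92, 107 and 81 in cattle-yak), the 5 genes can be read as shares of their summed reads. GABARAP made up 44.5% ± 1.97 in yak and 52.2% ± 4.13 in cattle-yak, and GABARAPL2 29.3% ± 1.24 and 21.6% ± 0.639. GABARAPL1 went from 1.02% ± 0.112 to 4.68% ± 0.692 and MAP1LC3A from 0.397% ± 0.0516 to 1.01% ± 0.332. MAP1LC3B, at 24.7% ± 1.79 and 20.5% ± 2.99, was the one whose shares overlapped between the groups. The summed level of the 4 genes in the set hardly differed, at 706 ± 24.1 CPM in yak and 721 ± 12.9 in cattle-yak. With library size alone that sum no longer overlapped (661 ± 41.2 and 773 ± 49.7).

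**Figure D2:**
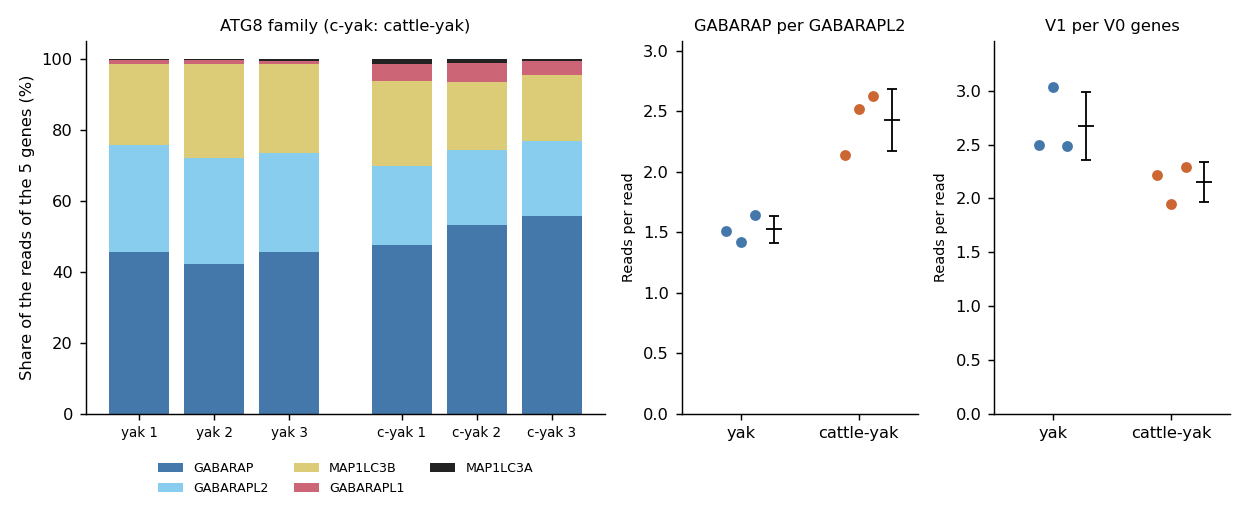
Left, share of each of 5 LC3 and GABARAP genes in their summed reads (y axis, percent) in each library; centre and right, GABARAP reads per GABARAPL2 read and reads of V-ATPase V1 genes per read of V0 genes (y axes, ratio), with a point per library and mean and SD whiskers. GABARAP takes 44.5% of the reads in yak and 52.2% in cattle-yak on average, and both ratios separate the groups. Both were chosen after their values were seen, and without ATP6V1G1 the V1 per V0 ratios overlap.

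SQSTM1, the p62 receptor that binds ubiquitinated cargo and LC3 and is itself degraded with the cargo, had the most reads in the set. It stood at 417, 380 and 452 CPM in yak and 401, 358 and 353 in cattle-yak. The groups overlapped and the estimate was -0.17 ± 0.16 (adjusted p = 0.556), with an interval of -0.50 to 0.17. TFEB, the transcription factor that switches on lysosomal and autophagy genes, was at 7.57, 4.81 and 5.92 CPM in yak and 7.03, 12.3 and 5.44 in cattle-yak. Cattle-yak 2 stood above the rest and the other libraries overlapped (0.43 ± 0.39, adjusted p = 0.526).

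**Figure D3:**
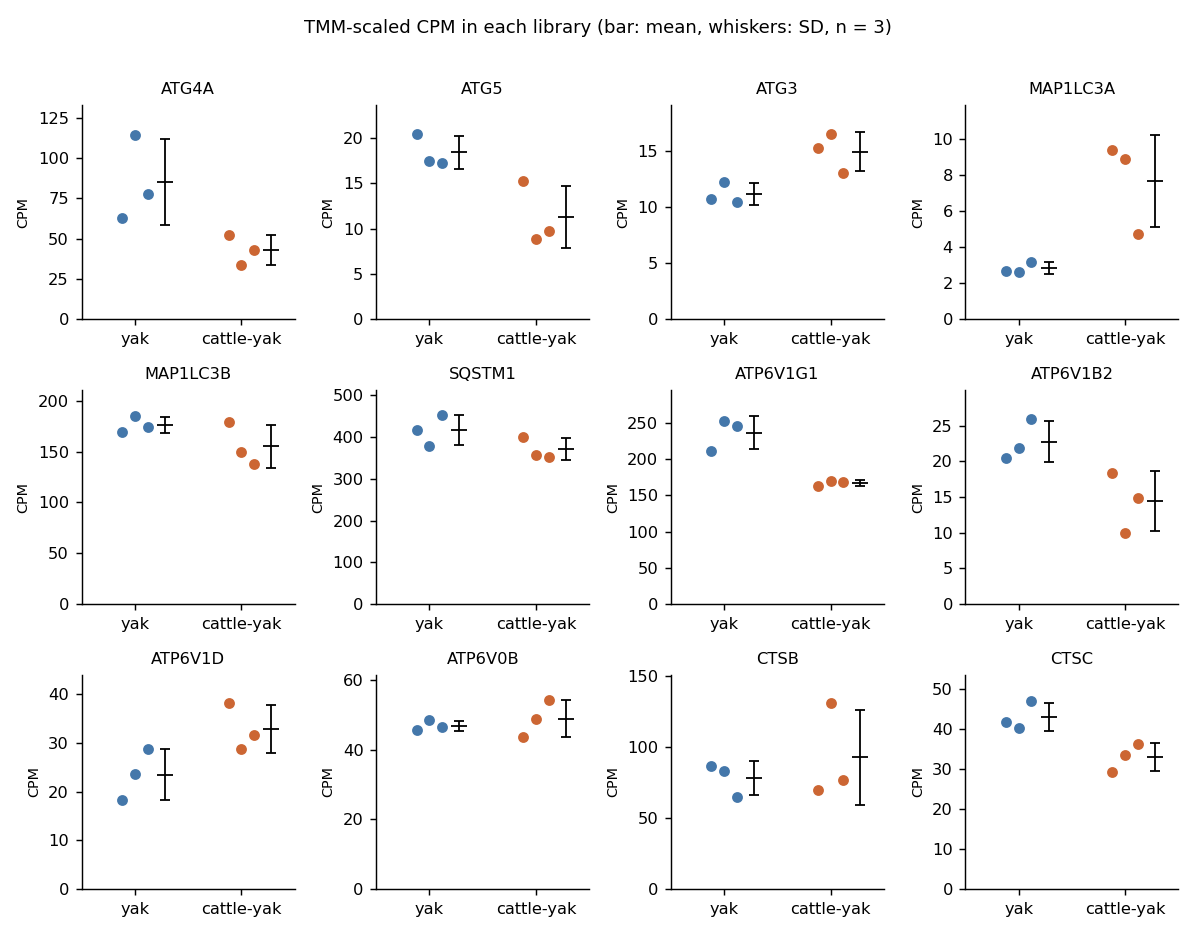
TMM-scaled CPM (y axes, from 0) of 12 genes in each library (points, in the order of library number), with the mean (bar) and SD (whiskers) of 3 libraries a group. ATG4A, ATG5, ATP6V1G1, ATP6V1B2 and CTSC lie lower in all 3 cattle-yak libraries, ATG3, MAP1LC3A and ATP6V1D higher, and MAP1LC3B, SQSTM1, ATP6V0B and CTSB overlap.

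The V-ATPase has a V1 sector in the cytosol that splits ATP and a V0 sector in the membrane that carries the protons. Among its 16 tested genes none rose and none fell at the gene level, and 2 had unadjusted p under 0.05, ATP6V1G1 and ATP6V1B2. Their median log2 fold change was -0.28, with 4 of 16 estimates above 0, against 5473 of 10397 over all genes. The V1 genes had a median of -0.42 and the V0 genes one of -0.11. The groups did not overlap in 4 of 8 V1 genes and in 1 of 6 V0 genes, against 29.9% of all genes, and the difference between the sectors was not tested.

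ATP6V1G1, a subunit of the stalk that holds the V1 head, came closest to the threshold. It was at 211, 252 and 246 CPM in yak and 163, 170 and 168 in cattle-yak. All cattle-yak libraries were below all yak libraries, and those of cattle-yak lay close together (236 ± 22.4 against 167 ± 3.80, SD, n = 3 each). The estimate of -0.50 ± 0.16 had an adjusted p of 0.0597 and an interval of -0.84 to -0.16, and it passed in none of its 18 alternatives (adjusted p 0.0597 to 0.288). Its reference transcript, ENSBGRT00000014951, held 96.0% ± 0.765 of the gene's reads in yak and 94.0% ± 1.51 in cattle-yak, and did not pass either (-0.50 ± 0.18, adjusted p = 0.0729).

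ATP6V1F, of the central shaft, was at 122, 137 and 116 CPM in yak and 113, 101 and 130 in cattle-yak, overlapping (-0.12 ± 0.17, adjusted p = 0.705), with its symbol on 17.2% of its reads. ATP6V1E1, a stalk subunit that pairs with the G subunit, was at 85.9, 94.5 and 83.8 CPM in yak and 66.0, 62.3 and 79.1 in cattle-yak. Its groups did not overlap, but it did not pass (-0.35 ± 0.18, adjusted p = 0.239). ATP6V1B2, the B subunit beside the catalytic sites, was at 20.5, 21.9 and 26.0 CPM in yak and 18.4, 10.01 and 14.9 in cattle-yak, again lower in each cattle-yak library but not past the threshold (-0.66 ± 0.27, adjusted p = 0.142). The catalytic subunit ATP6V1A and the regulatory subunit ATP6V1H overlapped (-0.50 ± 0.35 and -0.55 ± 0.36).

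ATP6V1D, of the central shaft, was the V1 gene with an estimate above 0. It was at 18.3, 23.6 and 28.7 CPM in yak and 38.3, 28.9 and 31.6 in cattle-yak, with no overlap, although yak 3 and cattle-yak 2 nearly met (0.48 ± 0.23, adjusted p = 0.209). Against ATP6V1B2, ATP6V1D had 0.891, 1.08 and 1.11 reads per read in yak and 2.09, 2.88 and 2.12 in cattle-yak. This pair was also chosen after its values were seen.

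Summed over the 10 V1 genes with reads, the level was 503, 589 and 569 CPM in yak and 453, 414 and 479 in cattle-yak. The groups did not overlap at these values, but they did with library size alone, where the log2 ratio of the means was -0.11 in place of -0.31. Relative to the V0 genes, which needs no scaling, V1 had 2.49, 3.03 and 2.49 reads per V0 read in yak and 2.22, 1.95 and 2.29 in cattle-yak. That separation rested on ATP6V1G1: without it the ratios were 1.45, 1.73 and 1.42 in yak and 1.42, 1.15 and 1.49 in cattle-yak, and overlapped.

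The membrane sector was level between the groups, with 208 ± 18.1 CPM summed over 7 V0 genes in yak and 208 ± 4.23 in cattle-yak. With library size alone the sums were 195 ± 15.4 and 223 ± 13.7 and did not overlap. ATP6V0E1, a small membrane subunit, was at 52.5, 57.3 and 51.5 CPM in yak and 61.0, 59.7 and 53.3 in cattle-yak, overlapping (0.11 ± 0.18, adjusted p = 0.756). ATP6V0D1, which couples the sectors, was at 35.2, 51.6 and 56.5 CPM in yak and 52.8, 57.0 and 51.9 in cattle-yak (0.17 ± 0.21, adjusted p = 0.644). The proton-carrying ring subunits overlapped as well, ATP6V0B at 0.06 ± 0.19 and ATP6V0C at -0.28 ± 0.29, although 2.99% of the ATP6V0C reads carried its symbol. ATP6V0A1, one of the large membrane subunits that target the pump, had 8.46, 8.31 and 5.47 CPM in yak and 3.52, 5.39 and 5.44 in cattle-yak, nearly meeting (-0.63 ± 0.38, adjusted p = 0.330). The accessory proteins ATP6AP1 (-0.43 ± 0.37, adjusted p = 0.507) and ATP6AP2 (-0.23 ± 0.34, adjusted p = 0.727) overlapped, the latter with its symbol on 14.5% of its reads. ATP6V0A2, another large membrane subunit, had 43 reads and a wide interval of -2.27 to 1.69. ATP6V0E2 (9 reads), ATP6V1E2 (4), ATP6V1C2 (2), ATP6AP1L (2) and the read-through symbol ATP6V1G2-DDX39B (1) were too low to test.

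LAMP1, a heavily glycosylated protein of the lysosomal membrane, was at 31.6, 21.4 and 26.4 CPM in yak and 20.3, 26.2 and 21.4 in cattle-yak. The groups overlapped and the gene did not pass (-0.23 ± 0.24, adjusted p = 0.593, interval -0.73 to 0.27). LAMP2 had no row with its symbol and is not analysed here.

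Of the 8 tested cathepsins none rose and none fell, with a median of 0.06, and 1 had an unadjusted p under 0.05. CTSB, a cysteine protease found in most cells, was at 86.4, 83.1 and 64.7 CPM in yak and 70.0, 131 and 76.9 in cattle-yak. Cattle-yak 2 was above the other 5 libraries, which overlapped (0.25 ± 0.23, adjusted p = 0.551), and without it the estimate was -0.06 (adjusted p = 0.896). CTSC, which activates proteases of immune cell granules, was at 41.8, 40.2 and 46.9 CPM in yak and 29.3, 33.5 and 36.3 in cattle-yak. It was the cathepsin whose groups did not overlap, lower in each cattle-yak library but not past the threshold (-0.38 ± 0.20, adjusted p = 0.246).

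CTSD, the main aspartic protease of the lysosome, ranged from 36.3 to 77.0 CPM in yak and from 37.7 to 49.0 in cattle-yak (-0.28 ± 0.25, adjusted p = 0.518). CTSA, a serine carboxypeptidase that also protects other lysosomal enzymes, overlapped (-0.13 ± 0.31, adjusted p = 0.842), as did CTSL (-0.24 ± 0.25, adjusted p = 0.589) and CTSK, known from bone resorption (0.28 ± 0.45, adjusted p = 0.750). CTSF, at 62 reads, had 4.01, 2.19 and 0.911 CPM in yak and 6.64, 7.31 and 3.63 in cattle-yak. Yak 1 lay above cattle-yak 3, and the estimate of 1.28 ± 0.53 did not pass (adjusted p = 0.142). CTSW, a cathepsin of cytotoxic lymphocytes, had 36 reads and overlapped. Summed over the 11 cathepsin genes with reads, the level was 227 ± 23.6 CPM in yak and 225 ± 29.4 in cattle-yak. CTSH (22 reads), CTSO (6) and CTSZ (14) were not tested.

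CTSS, a cathepsin of antigen-presenting cells that lies outside the set, rose in the same libraries from 10.7, 13.1 and 16.4 CPM in yak to 26.2, 48.9 and 30.8 in cattle-yak (1.39 ± 0.28, edgeR adjusted p = 0.00538). Every cattle-yak library was above every yak library. Macrophage markers stood at 20.0, 12.7 and 40.1 summed CPM in yak and 23.4, 68.1 and 88.5 in cattle-yak, which overlapped. Of the 7 macrophage markers tested, 1 rose and 6 did not pass. The one that rose was CD163, a scavenger receptor of macrophages (3.53 ± 0.75, edgeR adjusted p = 0.00829). It had low counts: 1, 0 and 3 for the yak libraries, against 7, 25 and 27 for the hybrid. CD163 met the read minimum only through cattle-yak, where it was high, so its call is not independent of that filter. All 7 estimates were above 0, but the groups separated in CD163 alone. AIF1 and CD68 also met the read minimum only through cattle-yak, so this sign count is not independent of the filter either. Of the listed markers too low to test, CSF1R, MRC1 and MSR1 had more reads in cattle-yak, LYVE1 had fewer and CD14 was level. CTSB was highest in cattle-yak 2. The macrophage marker sum was highest in cattle-yak 3 and next highest in cattle-yak 2. LUM, COL3A1 and COL1A2 of the fibroblast list fell (-1.50, -1.32 and -1.22), the fibroblast sum being lowest in cattle-yak 1. COL1A1 and DCN of that list overlapped and did not pass (-0.59 and 0.02, edgeR adjusted p = 0.420 and 0.968). DCN had 3282 reads, the most of the list. Whether these cells take part in the cathepsin levels was not tested.

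**Figure D4:**
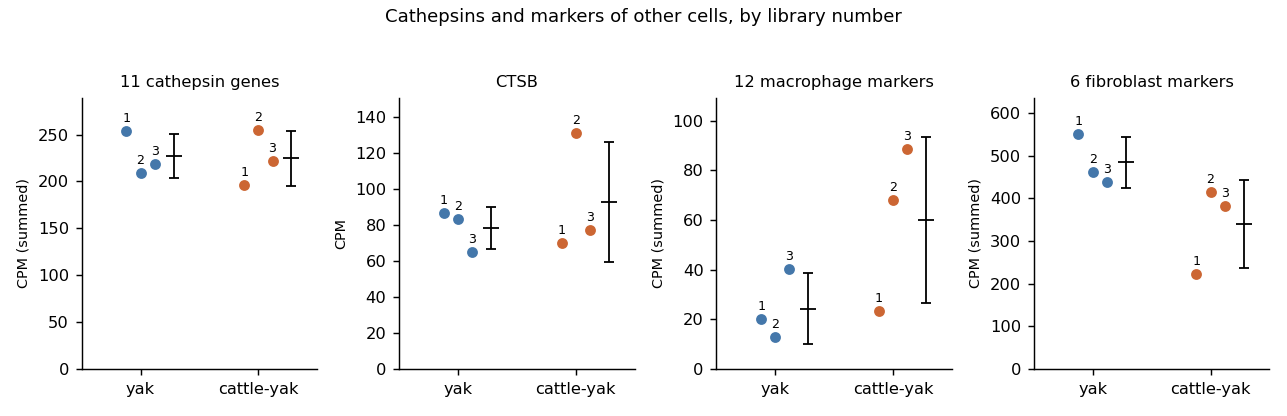
Summed TMM-scaled CPM of 11 cathepsin genes, CPM of CTSB, and summed CPM of 12 macrophage and 6 fibroblast markers (y axes, from 0), with points numbered by library and mean and SD whiskers (n = 3). Cathepsin sums overlap between the groups, cattle-yak 2 stands out for CTSB at 131 CPM, and the fibroblast sum is lower in all 3 cattle-yak libraries.

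Because the libraries are of full-length cDNA, the genes could also be read transcript by transcript. Of the 738 transcripts of the set with a read, 124 in 39 genes had at least 30 and were tested, 19 of them from the reference and 105 assembled from the reads. Among them 2 rose and 1 fell, against 12.8% of all transcripts called (6.52% higher, 6.27% lower). The one that fell was the ATG4A reference transcript, and those that rose were assembled transcripts of V1 genes, ATP6V1C1 and ATP6V1D. The latter had 8 yak and 47 cattle-yak reads (ATP6V1C1) and 2 and 28 (ATP6V1D). They met the read minimum only through cattle-yak, where they were high, so their calls are not independent of that filter.

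ATP6V1C1, a subunit at the joint of stalk and membrane that is known to control how V1 and V0 come together, did not differ as a gene (30.7, 42.4 and 46.5 CPM in yak, 40.6, 30.8 and 41.0 in cattle-yak, -0.09 ± 0.22, adjusted p = 0.844). Its transcript TALONT000230850 had 3, 4 and 1 reads in the yak libraries and 19, 13 and 15 in those of cattle-yak. Each cattle-yak library was well above each yak library, and the transcript rose (2.31 ± 0.53 on the log2 scale, edgeR adjusted p = 0.00822). It passed in every alternative run for it, the fits without 1 library included. Its share of the gene went from 3.15% ± 1.88 in yak to 15.9% ± 2.51 in cattle-yak. The other tested transcripts, TALONT000230855 and TALONT000230847, went from 52.4% ± 5.26 to 43.1% ± 4.08 and from 26.2% ± 5.42 to 15.2% ± 2.95 without passing (adjusted p = 0.459 and 0.144).

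ATP6V1D had a similar pattern at fewer reads. TALONT001220920 had 1, 0 and 1 reads in the yak libraries and 10, 10 and 8 in those of cattle-yak, and it rose (edgeR adjusted p = 0.00684). The ratio of reads per counted read was 13.5, with a 95% exact interval of 3.41 to 117 that covers counting error only. Its share was 1.34% ± 1.24 in yak and 10.9% ± 2.16 in cattle-yak. With 30 reads in all it missed the minimum in every fit without 1 library except that without yak 2, where it passed (adjusted p = 0.0338). The filterByExpr filter also dropped it. The gene's reference transcript, ENSBGRT00000010253, held 79.6% ± 8.19 of the reads in yak and 66.8% ± 5.56 in cattle-yak and did not pass as a level (0.30 ± 0.27, adjusted p = 0.526).

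Transcript usage, the division of a gene's reads among its transcripts, was tested in 39 genes of the set and changed in 2, ATP6V1C1 (edgeR diffSpliceDGE adjusted p = 0.0161) and ATP6V1E1 (0.0404), against 1.60% of 6392 genes; 5 had an unadjusted p under 0.05. In ATP6V1E1 the transcript TALONT001665537 had 30, 46 and 17 reads in the yak libraries and 2, 2 and 17 in those of cattle-yak. Cattle-yak 3 had as many reads as yak 3, and the other cattle-yak libraries were far below. The share went from 15.4% ± 6.03 to 3.41% ± 3.80, while the level of this transcript did not pass (-2.34 ± 0.68, adjusted p = 0.0546). The leading transcript, TALONT001665534, took 53.2% ± 8.75 and 64.9% ± 5.32 of the reads.

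Both usage calls depended on single libraries and on the settings. TALONT000230850 and TALONT001665537 had mean shares under the 5% minimum in the group where they were low. They entered the usage test through the group where they were high, so these calls are not independent of that minimum. For ATP6V1C1 the call went when yak 2 (adjusted p = 0.0858), yak 3 (0.251) or cattle-yak 2 (0.0580) was left out. For ATP6V1E1 it went when yak 1 (0.162), yak 2 (0.328), yak 3 (0.0504), cattle-yak 1 (0.157) or cattle-yak 2 (0.178) was. ATP6V1C1 was at an adjusted p of 0.723 with a share minimum of 10% and 0.106 with none. ATP6V1E1 was at 0.0838 with no minimum, 0.122 with the Simes method and 0.0786 with the replicate block. Cattle-yak, as hybrids, carry cattle copies of genes, and a transcript assembled from such a copy cannot be told apart here from a different splice form.

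**Figure D5:**
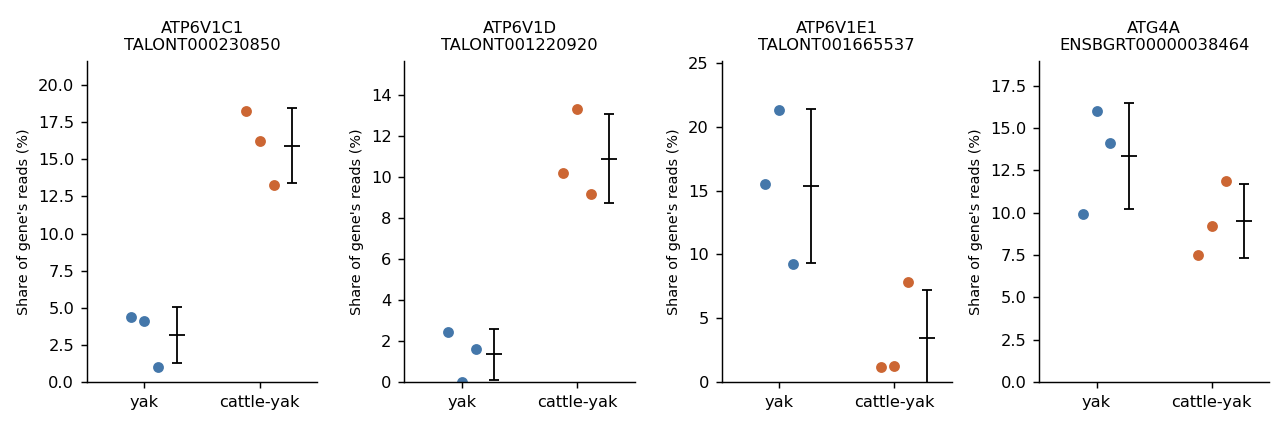
Share of the gene's reads (y axes, percent, from 0) held by 4 transcripts in each library, with mean and SD whiskers (n = 3), the lower whisker of the ATP6V1E1 transcript being cut at 0. The ATP6V1C1 and ATP6V1D transcripts are higher in all 3 cattle-yak libraries, and cattle-yak 3 lies near yak 3 for the ATP6V1E1 transcript.

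Other genes of the pathway were read from a list of 134 symbols, of which 92 were tested. Among them 5 rose and 3 fell, 8.70% against 10% of all genes (4.92% higher, 5.08% lower), with a median of -0.02. Autophagy machinery had 3 of 21 higher and none lower, cathepsin inhibitors 1 of 5 higher, lysosomal membrane and transport genes 1 of 14 higher, and lysosomal hydrolases 2 of 18 lower. None of 15 genes of mTORC1, the nutrient-sensing kinase complex at the lysosome, passed.

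GABARAPL1 had the highest fold change among those that rose, 7.28 ± 0.597 CPM in yak against 35.5 ± 5.91 in cattle-yak (2.28 ± 0.26, edgeR adjusted p = 6.8e-05). PSAP, the precursor of the saposins that help lysosomal enzymes degrade sphingolipids, was at 343, 265 and 299 CPM in yak and 157, 125 and 142 in cattle-yak. All cattle-yak libraries were well below all yak libraries, and PSAP fell (-1.10 ± 0.17, adjusted p = 0.000942). GABARAPL1, CTSS and PSAP each passed in all 17 alternatives that gave them a value.

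STX17 and SNAP29, SNARE proteins of the fusion of autophagosome and lysosome, rose by 1.27 ± 0.36 (adjusted p = 0.0364) and 1.21 ± 0.36 (0.0453). STX17 went from 4.48 ± 1.69 to 10.9 ± 0.991 CPM and SNAP29 from 5.36 ± 1.25 to 12.4 ± 4.07. STX17 lost its call without any one of the 6 libraries (adjusted p 0.0536 to 0.140), and SNAP29 without any one but cattle-yak 1 (0.0787 to 0.158). The SNAP29 symbol stood on 2.96% of its reads.

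FUCA1, the lysosomal fucosidase, fell from 14.9 ± 1.87 to 6.50 ± 2.96 CPM (-1.18 ± 0.35, adjusted p = 0.0437). Leaving out any one library but cattle-yak 3 ended the FUCA1 call (adjusted p 0.0789 to 0.146). CSTB, an inhibitor of cysteine cathepsins, and LAPTM4B, a lysosomal membrane protein, were the others that rose (0.94 ± 0.25 and 0.68 ± 0.19, adjusted p = 0.0249 and 0.0355). Leaving out any one but yak 3 and cattle-yak 1 ended the CSTB call (0.0583 to 0.102), and any one but cattle-yak 1 that of LAPTM4B (0.0555 to 0.125). In CSTB 9.43% of the reads carried the symbol, and those alone gave -0.02 (adjusted p = 0.986).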

How the data were processed

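The authors deposited 1 table for the 6 libraries with whole-number read counts per transcript and, beside them, CPM scaled to each library's total; the deposited CPM equalled count over total within 0.005. Per the submitters' processing notes, the tools included fastp, minimap2 and GSNAP. The counting software and the genome build were not given in the sources used here, so neither coordinates nor sequences are printed. Per the labels' protocols, libraries were made from TRIzol RNA with the kit SQK-PCS109. The table had 179856 transcripts; 132 lines without values and 61 transcripts without a gene identifier (at most 0.00249% of a library) were left out, and 0 columns belonged to other series.

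Counts were summed per gene identifier and tested with edgeR 4.0.16 (R 4.3.3; TMM scaling, robust quasi-likelihood fit, at least 30 reads over the 6 libraries), with p-values adjusted over all genes. The model held the group alone. SE is the log2 fold change over the root of F, and intervals are 95%. Usage was tested with diffSpliceDGE on transcripts with at least 5% of their gene's reads. DESeq2 1.42.0, limma 3.58.1 (voom), other scalings and filters, a replicate term and leaving out each library were alternatives. The scripts were checked on simulated data. CPM in the text are TMM-scaled. Gene lengths are not in the table, so levels of different genes are not ranked.

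Values were given for genes past the threshold, the 2 genes of each role with most reads, paralogs of called genes, and up to 3 other pathway genes a direction. STX17, SNAP29 and PSAP come under that rule together with GABARAPL1 and FUCA1; 1 further result under it is not reported here. CSTB and LAPTM4B, the remaining members with values and the read ratios were added after their values were seen. The genes and lists were chosen with earlier results of these data known.

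Libraries of a group differed by more than sampling noise (chi-square per degree of freedom of 5.36 to 10.0), so no library was treated as a copy of another; repeat libraries of 1 sample would differ too and cannot be told apart from separate samples.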

Additional observations from a re-analysis of the deposited data

How the results depend on the processing

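Depth limits the genes under 30 reads, 15 of 58, and MAP1LC3A, which has 79. The count of genes of the set that rose, 1, was 2 with library size alone (GABARAP added) and 0 with DESeq2, limma-voom, no low count filter, a fit that was not robust, rows with the symbol only, reference transcripts only, and the replicate block. The count that fell, 1, was 0 with reference transcripts only, which also gave 188 genes called in all in place of 1040. Leaving out 1 library at a time gave 0 to 1 that rose, 0 to 1 that fell and 539 to 998 genes called. MAP1LC3A was at adjusted p = 0.0866 without the filter, 0.0527 without the robust fit and 0.0809 with rows bearing the symbol. Transcripts that rose, 2, numbered 1 with filterByExpr and 1 to 2 without a library. Those that fell, 1, numbered 2 with library size alone, 4 with filterByExpr, 3 without a filter and 0 to 2 without a library. Genes with changed usage, 2, numbered 0 at a share minimum of 10%, 0 with no minimum, 1 with the Simes method, 1 with the replicate block and 0 to 2 without a library. Library size alone reversed the log2 ratio of the set's summed CPM, a setting chosen after seeing the data, from -0.117 to 0.0789, and rows with the symbol only reversed CSTB, from 0.942 to -0.0242. Fewer transcripts enter with reference transcripts only or with filterByExpr; for the other settings the cause was not tested. Over single genes of the set, 709 values stayed on their side of the threshold, 15 lost their call and 1 gained it. Replicate numbers did not pair the libraries: deviations of same-numbered libraries correlated at -0.0408, -0.0116 and 0.0124. With the replicate block MAP1LC3A was at 1.39 (adjusted p = 0.0689), 1 gene of the set fell, and 1010 genes were called in all.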
